A study of Mus musculus with 20 samples.

Results

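The 10 genes described here encode the steps by which a muscle fibre takes up glucose, traps it and stores or releases it as glycogen. They were chosen by gene symbol from the deposited table of estimated counts, which lists 21844 genes. The members are the glucose transporters Slc2a4 and Slc2a1, the transport regulators Tbc1d1 and Tbc1d4, the hexokinases Hk1 and Hk2, the regulators of phosphofructokinase Pfkfb1 and Pfkfb3, glycogen synthase Gys1 and glycogen phosphorylase Pygm. All 10 symbols were found on 1 row each, and all 10 passed the filter that left 14359 genes for testing. A gene passed with 1 CPM or more, a count scaled to the library's total, in 5 or more of the 20 libraries.

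Muscle takes up glucose mainly through GLUT4, the product of Slc2a4, which waits in storage vesicles and moves to the surface membrane in response to insulin or contraction. TBC1D1 and TBC1D4 (AS160) are Rab GTPase-activating proteins that hold these vesicles back until insulin or AMPK signalling phosphorylates them. Inside the fibre a hexokinase phosphorylates glucose, after which it can be stored by glycogen synthase or enter glycolysis, and muscle glycogen phosphorylase mobilises the store during work. BMAL1 is a transcription factor of the circadian clock that binds E-box motifs with CLOCK, and muscle glucose metabolism is one of the processes the muscle clock is known for.

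The study asked what loss of BMAL1 in skeletal muscle and treadmill training change in mouse hindlimb muscle RNA. Every mouse, controls included, had the genotype given as Cre+:iMSBmal1 fl/fl, which combines a floxed Bmal1 gene with a Cre that the labels call muscle-specific. Other cell types of the tissue therefore keep the gene by design. The 4 groups were vehicle without exercise, iMSBmal1KO without exercise, vehicle with exercise training and iMSBmal1KO with exercise training, with 5 libraries each. They are called vehicle sedentary, knockout sedentary, vehicle trained and knockout trained below. Training was daily on a treadmill for 6 weeks. Collection is given as 48 hours after in the sample labels and as 47 hours after the final bout in the series design, and the labels name both gastrocnemius and tibialis anterior. Age, sex and the drug that induces the Cre are not given in the sources used here. Nothing in the labels says whether libraries of a group came from separate animals, so p-values measure the spread between these samples.

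Totals were 12929215 to 19153527 estimated counts in vehicle sedentary, 11506037 to 18969645 in knockout sedentary, 13905274 to 17564810 in vehicle trained and 10610333 to 13079961 in knockout trained libraries. Knockout trained libraries 1 and 4, and libraries 3 and 5, stood out among pairs. Their differences, relative to counting noise, were at high counts 1.27 and 0.873 times those at low counts. Every other pair was at 2.30 or more. Those 2 pairs were each counted as 1 sample, so that group has n = 3. Vehicle trained library 2 stood apart, with 26.1% of tested genes differing by over 2-fold, on log2(CPM + 1), from the 4 libraries beside it. Results are given with it and without it. Muscle fibre markers (Acta1, Ckm, Myh4, Mb, Tnnt3) were all detected in every group and summed to 62650 to 70800 CPM in vehicle and 54750 to 69350 CPM in knockout libraries of the sedentary groups. The targeted gene, Arntl (Bmal1), had a mean of 6.79 ± 0.890 CPM (SD, n = 5) without and 13.2 ± 3.28 CPM (SD, n = 5) with the knockout label in sedentary muscle. In trained muscle it was between 6.319 and 132.3 CPM for vehicle, the highest being library 2, and between 8.043 and 16.07 CPM for knockout. Library 2 aside, labelled knockouts were thus not lower for their own target. In sedentary muscle every knockout value (10.96 to 18.87 CPM) lay above every vehicle value (5.682 to 7.93 CPM). Counts over a whole gene do not show by themselves whether its floxed part was deleted, which was not tested. Every direction below therefore follows the labels, and "knockout" means so labelled.

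Promoter windows run from 250 bases before to 50 bases after a transcript start. Only 1 of the windows found for the members, at a Pfkfb3 start, holds CACGTG. The windows printed first are that one and those of Tbc1d1 and Hk2, the members that differed most with genotype. They are RefSeq sequences of GRCm38.p6, written 5′ to 3′ on the gene's strand, and capitals mark the general E-box letters CANNTG, of which CACGTG, the form that CLOCK and BMAL1 bind, is 1 case. The windows are chr5:64160010-64160309 (plus strand) and chr5:64230107-64230406 (plus strand) for Tbc1d1, chr6:82774405-82774704 (minus strand) for Hk2 and chr2:11502041-11502340 (minus strand) for Pfkfb3.
Tbc1d1, start 1: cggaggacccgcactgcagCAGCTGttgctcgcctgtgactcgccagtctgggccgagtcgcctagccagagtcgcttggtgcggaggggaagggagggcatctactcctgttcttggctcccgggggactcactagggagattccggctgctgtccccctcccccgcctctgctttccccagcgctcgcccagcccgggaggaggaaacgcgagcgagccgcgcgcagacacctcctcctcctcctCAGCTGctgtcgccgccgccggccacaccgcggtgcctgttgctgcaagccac
Tbc1d1, start 2: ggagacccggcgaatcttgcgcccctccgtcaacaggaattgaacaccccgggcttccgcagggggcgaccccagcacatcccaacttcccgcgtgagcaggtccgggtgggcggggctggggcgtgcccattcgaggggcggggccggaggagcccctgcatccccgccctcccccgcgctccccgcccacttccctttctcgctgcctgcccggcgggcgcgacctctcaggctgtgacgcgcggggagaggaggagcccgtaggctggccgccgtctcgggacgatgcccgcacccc
Hk2: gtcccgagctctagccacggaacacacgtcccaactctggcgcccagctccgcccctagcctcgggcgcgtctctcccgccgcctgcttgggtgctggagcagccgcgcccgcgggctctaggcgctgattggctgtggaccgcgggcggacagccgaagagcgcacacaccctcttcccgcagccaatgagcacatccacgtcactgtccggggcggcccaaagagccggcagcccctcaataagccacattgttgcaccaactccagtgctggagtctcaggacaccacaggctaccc
Pfkfb3, start 2: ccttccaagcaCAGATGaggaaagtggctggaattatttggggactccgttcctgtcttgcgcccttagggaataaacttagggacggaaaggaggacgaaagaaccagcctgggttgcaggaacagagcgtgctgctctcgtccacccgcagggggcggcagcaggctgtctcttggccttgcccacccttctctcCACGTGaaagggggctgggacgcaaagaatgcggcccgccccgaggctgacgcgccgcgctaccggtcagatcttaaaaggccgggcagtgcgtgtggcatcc

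The RefSeq table held 15 such windows for 9 of the 10 members, and none for Slc2a4, which was therefore not searched. Searched on both strands, CACGTG was in 1 of the 15 windows, against 7.15% of all 32851 windows of the table. In that window of Pfkfb3 it began 53 bases before the start. The looser CANNTG was in 11 of the 15 member windows and in 72.3% of all windows. The first Tbc1d1 window holds it 2 times, beginning 231 and 3 bases before the start, while the second Tbc1d1 window and the Hk2 window hold none. Of 61 windows of 47 other genes of the pathway, 8 hold CACGTG, among them that of Aspscr1, where it begins 142 bases before the start. A match is a string of letters and not a measured binding site, and its absence speaks only of these windows.

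Loss of BMAL1 by label went with a lower level of Tbc1d1 in both sedentary and trained muscle and of Hk2, most clearly once the divergent library was set aside. Tbc1d1 was 3.11-fold lower in knockout than in vehicle sedentary muscle and 3.22-fold lower in trained muscle. Slc2a4 and Tbc1d4 did not pass the test in either state. In bulk tissue, fewer cells of a type and less RNA per cell cannot be told apart. Of the 10 members, 1 passed in sedentary muscle (Tbc1d1) and 2 passed in trained muscle (Tbc1d1 and Hk2), all of them lower in knockout (edgeR, with p adjusted by Benjamini-Hochberg over all tested genes and a threshold of 0.05). Over all tested genes, 2.33% passed in sedentary muscle (1.31% lower in knockout) and 3.29% in trained muscle (1.3% lower). Without vehicle trained library 2, 3 members passed in sedentary muscle (Tbc1d1, Hk2 and Pfkfb1) and 2 in trained muscle (Tbc1d1 and Hk2), again all lower. The shares over all genes were then 6.98% (3.84% lower) and 8.66% (3.65% lower). The median log2 change of the members was -0.24 in sedentary muscle, beside 0.01 over all genes, and -0.08 in trained muscle, beside -0.03. The members were chosen with earlier results of these data known. Their counts and medians therefore describe the list and do not test it against all genes.

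**Figure D1:**
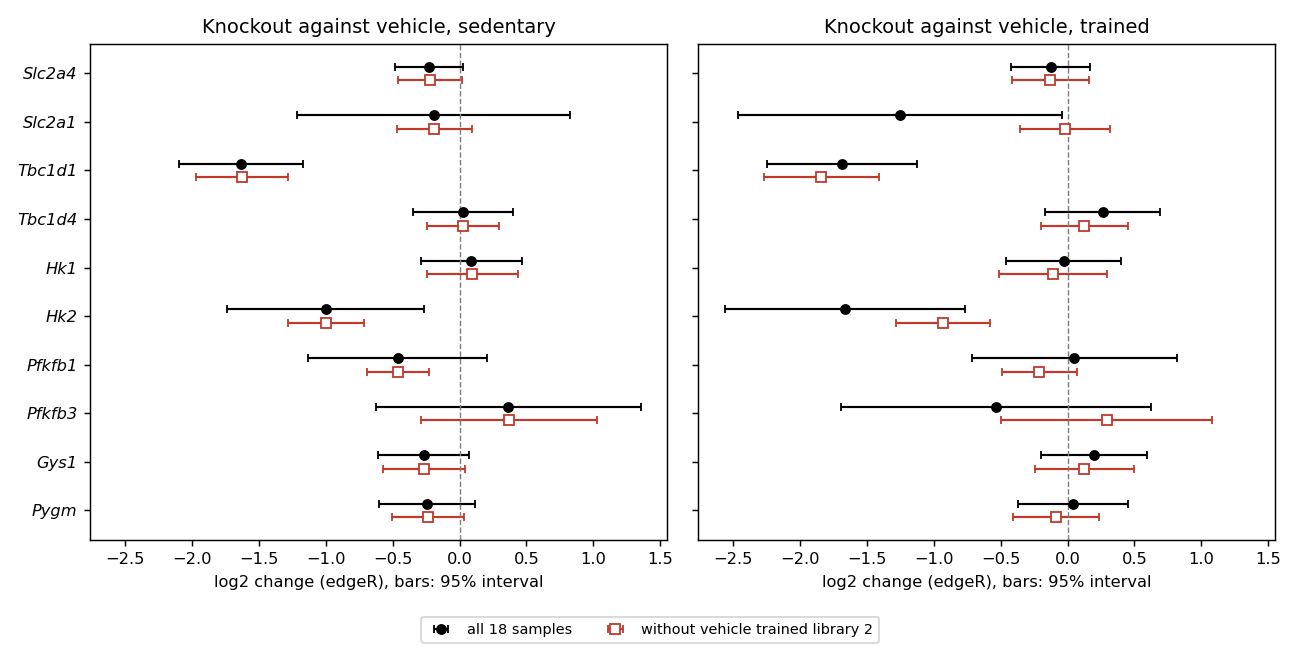
Log2 change of each gene between knockout and vehicle muscle, sedentary (left) and trained (right), from edgeR, with bars for the 95% interval. Black circles use all 18 samples and red squares leave out vehicle trained library 2. Tbc1d1 lies between -1.63 and -1.84 in both panels, and the Hk2 interval is far narrower without that library.

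Whether values overlapped between groups was also counted, without a model. In sedentary muscle, Hk2 and Tbc1d1 had all 5 knockout values under all 5 vehicle values and the other 8 members overlapped, where 9.4% of all tested genes did not overlap in either direction. The trained groups were apart for the same 2 members, against 7.95% of all genes. Leaving out vehicle trained library 2 added Pfkfb1, for 3 of 10 members against 14.5% of all genes. These counts differ from the calls for Hk2 in sedentary muscle, which did not pass on all samples, and for Pfkfb1, which without library 2 passed in sedentary muscle while overlapping and did not pass in trained muscle.

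Among the transporters, Slc2a4 (GLUT4, ENSMUSG00000018566) was at 843.1, 813.4, 713.6, 630.1 and 693.0 CPM in vehicle and 628.4, 652.4, 662.7, 658.2 and 676.5 CPM in knockout libraries of the sedentary groups 1 to 5. It was at 495.1, 582.9, 677.1, 693.6 and 696.7 CPM in vehicle trained libraries and 667.2, 472.2 and 550.1 CPM in the 3 knockout trained samples. The ranges overlap in both states, and the 5 knockout sedentary values lie closest together. The log2 change with knockout was -0.23 (SE 0.120, 95% interval -0.48 to 0.02, edgeR adjusted p = 0.607) in sedentary muscle and -0.13 (95% interval -0.42 to 0.17, edgeR adjusted p = 0.677) in trained muscle. These intervals leave room for a fall of Slc2a4 to about the lower bounds given, and not for one of the size seen in Tbc1d1. Slc2a4 did not pass in any of the 25 alternative analyses of either contrast.

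Slc2a1 encodes GLUT1, the transporter of basal uptake that endothelium also carries. It was low, at 12.2 ± 1.25 CPM (SD, n = 5) in vehicle sedentary, 11.1 ± 1.71 CPM (SD, n = 5) in knockout sedentary and 9.71 ± 1.22 CPM (SD, n = 3) in knockout trained muscle. In vehicle trained libraries 1 to 5 it was at 8.342, 74.45, 11.14, 11.1 and 10.77 CPM. Library 2 alone sets that group apart. The knockout effect on Slc2a1 in trained muscle was -1.26 on the log2 scale with this library (edgeR adjusted p = 0.272) and -0.02 (95% interval -0.36 to 0.31) without it. Blood markers (Hba-a1, Hba-a2, Hbb-bs, Hbb-bt, Alas2), all detected in each group, summed to 514.2 CPM in library 2 and 572.3 to 2050 CPM in the other 4. Endothelial markers (Pecam1, Cdh5, Kdr, Vwf, Tek) summed to 171.0 CPM against 151.1 to 203.4 CPM. The part of any cell type in the Slc2a1 value of library 2 was not tested. Exons of Slc2a1 overlap those of Gm12868 on the opposite strand, which is not among the genes counted, and strandedness is not given.

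Tbc1d1 (ENSMUSG00000029174), the GTPase-activating protein on which exercise signals through AMPK converge, showed the widest separation among the members. It was at 106.7, 92.53, 64.79, 84.25 and 71.05 CPM in vehicle and 19.82, 29.7, 35.08, 27.81 and 27.91 CPM in knockout libraries of the sedentary groups. Trained muscle had 65.87, 35.28, 97.7, 78.17 and 82.1 CPM in vehicle libraries and 27.36, 18.5 and 19.4 CPM in knockout samples. The lowest vehicle value, 35.28 CPM, is that of trained library 2, and even it lies above every knockout trained sample. The log2 change was -1.64 (SE 0.222, 95% interval -2.10 to -1.17, edgeR adjusted p = 0.0002235) in sedentary and -1.69 (SE 0.268, 95% interval -2.25 to -1.13, edgeR adjusted p = 0.001461) in trained muscle. The sedentary call held in 25 of 25 alternative analyses and the trained call in 24 of 25. The exception was a fit restricted to the trained groups, with an edgeR adjusted p of 0.1032. Without library 2 the trained change was -1.84, a 3.59-fold lower level.

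Its relative Tbc1d4 (AS160), which answers chiefly to insulin through AKT, did not share this difference. The sedentary means of Tbc1d4 were 82.5 ± 10.8 CPM (SD, n = 5) for vehicle and 87.2 ± 11.5 CPM (SD, n = 5) for knockout, and the trained values were 54.08, 33.03, 70.63, 80.22 and 63.46 CPM for vehicle and 76.64, 60.55 and 72.44 CPM for knockout. The log2 change with knockout was 0.02 (95% interval -0.35 to 0.40, edgeR adjusted p = 0.9995) in sedentary muscle and 0.26 (95% interval -0.17 to 0.69, edgeR adjusted p = 0.540) in trained muscle. Both intervals lie wholly above the interval of Tbc1d1. Per kilobase of exon, the ratio of Tbc1d1 to Tbc1d4 was 0.751 to 1.33 in vehicle sedentary and 0.228 to 0.487 in knockout sedentary libraries. In trained muscle the ratio was 1.01 to 1.43 in vehicle and 0.278 to 0.370 in knockout samples, so the 2 messages were about level in vehicle muscle and Tbc1d1 was the lesser in every knockout sample. The difference between these ratios was not tested on its own.

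**Figure D2:**
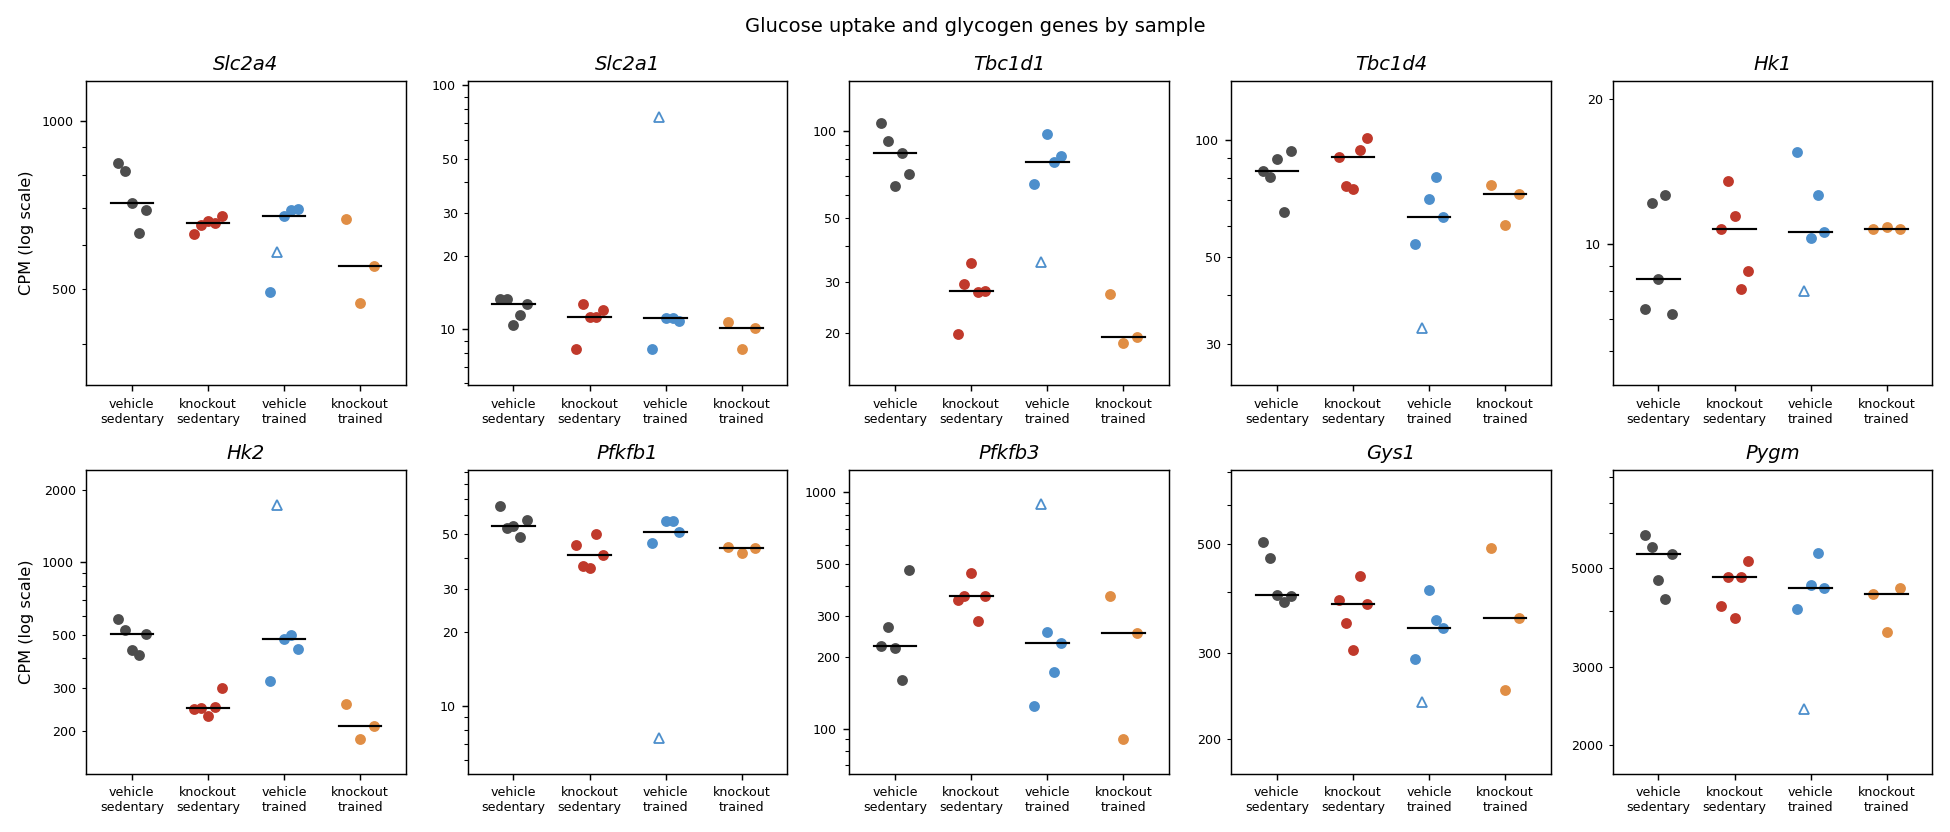
CPM of each of the 10 genes by sample on a log axis, with 1 point per sample, a bar at the group median and an open triangle for vehicle trained library 2. Knockout points lie under the vehicle points for Tbc1d1 and Hk2 in both states, and the triangle is far off the other vehicle trained points for Slc2a1, Hk2, Pfkfb1 and Pfkfb3.

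Hk2 (ENSMUSG00000000628) encodes hexokinase II, the main hexokinase of muscle, which phosphorylates glucose as it enters and so keeps it in the fibre. It was at 581.9, 524.9, 433.7, 411.7 and 505.4 CPM in vehicle and 245.8, 247.7, 230.4, 251.8 and 300.6 CPM in knockout libraries of the sedentary groups. Trained libraries had 321.1, 1729, 478.4, 497.9 and 434.7 CPM in vehicle and 257.9, 185.7 and 210.1 CPM in knockout. No knockout value reached any vehicle value in either state, and library 2 of the vehicle trained group was the highest of all by far. In sedentary muscle the log2 change was -1.002 (SE 0.350, 95% interval -1.74 to -0.27) and did not pass (edgeR adjusted p = 0.212) in the fit on all samples. That fit shares 1 estimate of the spread over all 4 groups. Vehicle trained library 2 is in neither sedentary group, yet without it the change was -0.998, with SE 0.136 and an edgeR adjusted p of 6.729e-05, a 2.00-fold lower level.

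In trained muscle Hk2 had a log2 change of -1.67 (SE 0.428, edgeR adjusted p = 0.03906) with library 2 and of -0.93 (SE 0.166, 95% interval -1.28 to -0.58, edgeR adjusted p = 0.001366) without it, a 1.91-fold difference. The larger value rests on library 2. The call on all samples held in 13 of 25 alternatives. It was lost when vehicle sedentary library 1, 2, 3 or 5, knockout sedentary library 1, 2, 3 or 4, or any of the 3 knockout trained samples was left out, with edgeR adjusted p between 0.05066 and 0.1596, and in the fit on trained groups alone (edgeR adjusted p = 0.4692).

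Hk1, the hexokinase most tissues use, was a minor message in these samples and showed no separation. Its sedentary means were 9.55 ± 2.66 CPM (SD, n = 5) for vehicle and 10.5 ± 2.15 CPM (SD, n = 5) for knockout, with a log2 change of 0.09 (95% interval -0.29 to 0.46). In trained muscle the change was -0.03 (95% interval -0.46 to 0.40). Per kilobase, Hk2 exceeded Hk1 by 46.6 to 113 times in vehicle sedentary and by 26.3 to 48.8 times in knockout sedentary libraries. In trained muscle it was 29.6 to 309.2 times in vehicle, or 29.6 to 66.6 times without library 2, and 24.5 to 34.3 times in knockout samples. The ranges of this ratio overlap in both states. Exons of Hk1 overlap those of Hk1os on the opposite strand, which is not among the genes counted. Strandedness is not given in the sources used here, so reads of Hk1os cannot be told apart from those of Hk1.

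Pfkfb1 and Pfkfb3 encode bifunctional enzymes that make and remove fructose 2,6-bisphosphate, the activator of phosphofructokinase. Pfkfb1 was at 65.59, 53.08, 54.19, 48.71 and 57.24 CPM in vehicle and 45.44, 37.01, 36.49, 50.23 and 41.32 CPM in knockout libraries of the sedentary groups. Only knockout library 4 lay above the lowest vehicle library. The log2 change was -0.46 and did not pass on all samples (SE 0.318, edgeR adjusted p = 0.803), but passed without vehicle trained library 2 (-0.46, SE 0.111, edgeR adjusted p = 0.01344), a 1.37-fold lower level. Trained libraries had 45.95, 7.399, 56.85, 56.53 and 51.03 CPM in vehicle and 44.33, 41.82 and 44.09 CPM in knockout. There the log2 change was 0.05 with library 2 and -0.21 without it (95% interval -0.49 to 0.07, edgeR adjusted p = 0.382), although the knockout values then all lay under the vehicle values. Exons of Pfkfb1 overlap those of Apex2 on the opposite strand, and since strandedness is not given in the sources used here, reads of the 2 cannot be told apart. Apex2 averaged 6.10 CPM.

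Pfkfb3, the form with the strongest kinase activity, varied widely within groups. It ran from 161.2 to 467.8 CPM in vehicle and from 284.6 to 456.3 CPM in knockout libraries of sedentary muscle, and from 125.1 to 891.7 CPM and 90.06 to 363.0 CPM in those of trained muscle. All ranges overlap. Its log2 change with knockout was 0.37 (95% interval -0.62 to 1.35, edgeR adjusted p = 0.973) in sedentary muscle. In trained muscle it was -0.53 with vehicle trained library 2 and 0.29 without it, so 1 library turned the direction.

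The 2 glycogen enzymes were abundant and did not pass in either state. Gys1, which adds glucose units to glycogen, averaged 427.6 ± 55.8 CPM (SD, n = 5) in vehicle and 368.5 ± 46.9 CPM (SD, n = 5) in knockout libraries of sedentary muscle (log2 change -0.27, 95% interval -0.61 to 0.07, edgeR adjusted p = 0.721). Its trained means were 324.0 ± 61.9 CPM (SD, n = 5) for vehicle and 365.2 ± 119.6 CPM (SD, n = 3) for knockout (log2 change 0.20, 95% interval -0.20 to 0.59). Gys1 exons overlap those of Ruvbl2 on the opposite strand, which averaged 16.1 CPM. Pygm, the muscle glycogen phosphorylase lacking in McArdle disease, averaged 5166 ± 680.5 CPM (SD, n = 5) in vehicle and 4543 ± 542.5 CPM (SD, n = 5) in knockout libraries of sedentary muscle (log2 change -0.24, 95% interval -0.60 to 0.12, edgeR adjusted p = 0.817). The trained means of Pygm were 4197 ± 1106 CPM (SD, n = 5) and 4164 ± 490.4 CPM (SD, n = 3), with a log2 change of 0.04 (95% interval -0.37 to 0.45). Both genes overlapped between genotypes in every comparison.

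Levels can be set against each other only per length, here CPM per kilobase of exon in GENCODE M21. In vehicle sedentary muscle the order of medians was Pygm (1668), Slc2a4 (205.2), Hk2 (84.7), Gys1 (82.0), Pfkfb3 (29.7), Pfkfb1 (13.5), Tbc1d1 (11.4), Tbc1d4 (10.9), Slc2a1 (3.61) and Hk1 (0.991). Ranges of neighbours overlap for Hk2 and Gys1 and for Pfkfb1, Tbc1d1 and Tbc1d4, so the order within these is not settled. Pygm lay above every other member, and Hk1 below, in all 5 libraries. In knockout sedentary muscle Hk2 stood at a median of 41.5, under Gys1 (78.7) and beside Pfkfb3 (48.1). Tbc1d1 stood there at 3.77, with its range reaching into that of Slc2a1 (3.22).

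**Figure D3:**
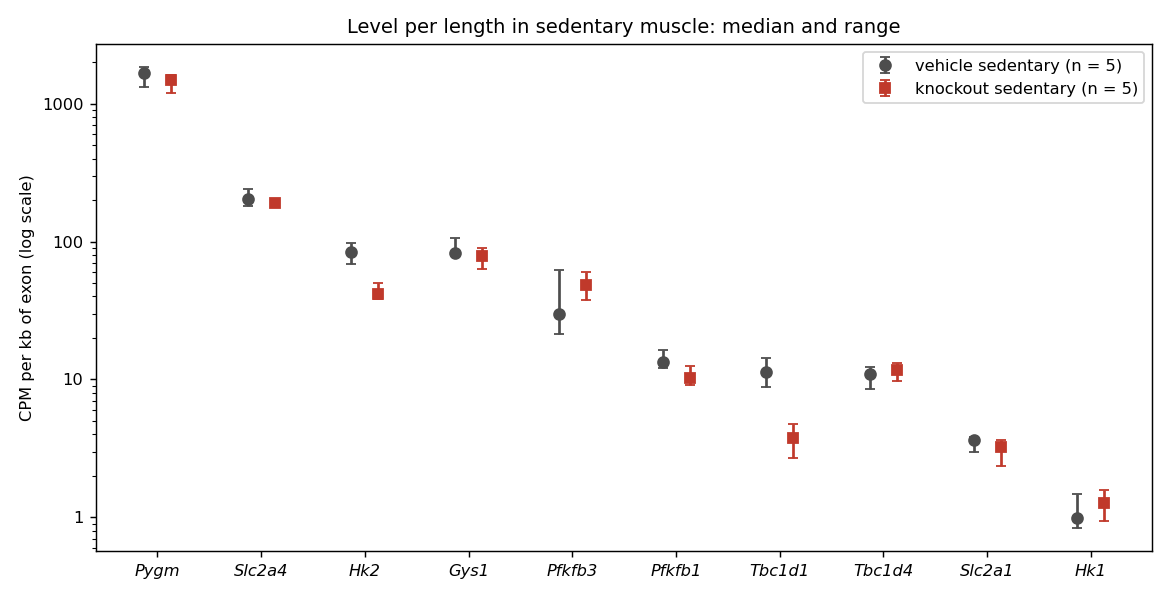
CPM per kilobase of exon, on a log axis, in vehicle (grey circles) and knockout (red squares) sedentary muscle, as the median with bars from the lowest to the highest of 5 libraries. The vehicle medians span from 1668 for Pygm to 0.991 for Hk1, and Hk2 and Tbc1d1 are the members whose bars do not overlap between genotypes.

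No member passed the test for training. In vehicle muscle 0 of 10 members passed (0% of all genes in edgeR). At an unadjusted p under 0.05 there were 2, Tbc1d4 with a log2 change of -0.42 (95% interval -0.80 to -0.05) and Gys1 with -0.36 (95% interval -0.70 to -0.01), and DESeq2 and limma also passed 0. Without library 2 the count stayed 0 (0% of all genes), with 1 member, Hk1, at an unadjusted p under 0.05 (log2 change 0.39, 95% interval 0.04 to 0.75). The share of all genes at that unadjusted level is not given here, so these counts are not read as particular to the members. All 10 members overlapped between vehicle sedentary and vehicle trained muscle, where 2.98% of all genes did not, or 4.91% without library 2. Hk2, which is known to respond to exercise, had a log2 change with training of 0.57 with library 2 and -0.15 without it, and Slc2a1 had 1.01 and -0.21. For Slc2a4 the change was -0.19 (95% interval -0.44 to 0.07), or -0.17 without that library.

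In knockout muscle training again passed 0 of 10 members (0% of all genes in edgeR, and 0.843% without vehicle trained library 2, when the members still numbered 0). None was at an unadjusted p under 0.05, and DESeq2 and limma passed 0. The log2 changes ran from -0.51 (Pfkfb3) to 0.19 (Pfkfb1), and every member overlapped, where 11.9% of all genes did not. The median over members was -0.07, beside -0.02 over all genes, and in vehicle muscle it was -0.18 beside 0.03.

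The interaction, which asks whether the training response differs by genotype, passed 0 of 10 members (0% of all genes, and 0% without library 2; edgeR), none at an unadjusted p under 0.05, and 0 in DESeq2 and limma. For Tbc1d1 it was -0.05 on the log2 scale (95% interval -0.75 to 0.64, edgeR adjusted p = 0.971). Hk2 had -0.66 (95% interval -1.79 to 0.46) with library 2 and 0.06 (95% interval -0.38 to 0.51) without it. Without it, the genotype changes of Hk2 stood at -0.998 in sedentary and -0.93 in trained muscle. The contrasts share samples, so the side-by-side values are not independent.

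Vehicle trained library 2 lay outside the range of the other 4 libraries of its group in 9 of the 10 members, as it did in 77.3% of all tested genes, so the divergence was not particular to these members. Slc2a1 was 7.20-fold, Pfkfb3 4.54-fold and Hk2 3.99-fold above the mean of the other 4. Pfkfb1 was 7.11-fold, Tbc1d1 2.30-fold and Tbc1d4 2.03-fold below it, and Pygm, Hk1 and Gys1 were 1.92-fold, 1.53-fold and 1.45-fold below. Slc2a4, at 582.9 CPM, was the 1 member inside the range. Muscle fibre markers summed to 42520 CPM in this library and to 57860 to 68810 CPM in the other 4. Macrophage markers (Cd68, Adgre1, Csf1r, Lyz2, Mrc1; all detected) summed to 279.7 CPM against 124.6 to 280.1 CPM, and adipocyte markers (Adipoq, Plin1, Cfd, Lep, Fabp4; 4 of 5 detected, with Lep at 0) to 165.7 CPM against 218.6 to 1008 CPM. Satellite cell markers (Pax7, Myf5, Cdh15; all detected) summed to 27.6 CPM, above the 16.2 to 22.9 CPM of the other 4, and slow fibre markers (Myh7, Tnni1, Tnnc1, Myl2; all detected) to 298.5 CPM against 189.0 to 726.5 CPM. Their part in the divergence was not tested.

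**Figure D4:**
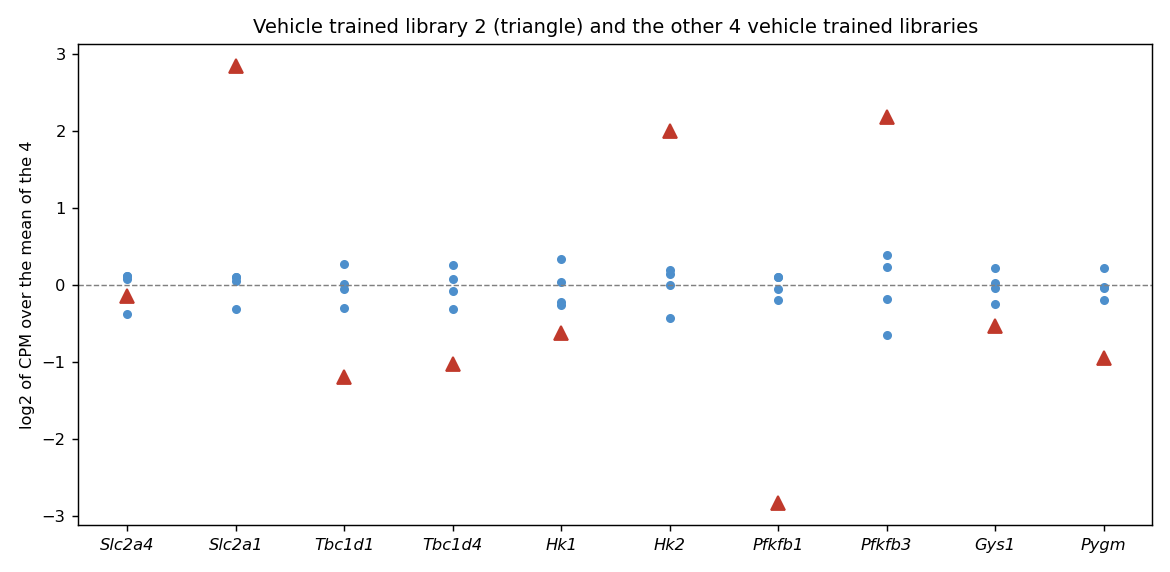
Log2 of CPM over the mean of the other 4 vehicle trained libraries, for library 2 (red triangles) and those 4 (blue circles), by gene. Only for Slc2a4 does the triangle lie among the circles, and it is furthest off for Slc2a1 (7.20-fold higher) and Pfkfb1 (7.11-fold lower).

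Marker lists of other cell types overlapped between the sedentary genotypes. Endothelial sums were 154.6 to 235.8 CPM in vehicle and 198.5 to 241.3 CPM in knockout, adipocyte sums 221.2 to 445.9 and 297.6 to 372.1 CPM, macrophage sums 39.5 to 171.7 and 61.8 to 186.6 CPM, and satellite cell sums 22.0 to 29.3 and 28.3 to 33.3 CPM, which overlap only at their ends. Slow fibre sums were 417.1 to 739.5 and 262.2 to 642.8 CPM. In knockout trained samples the sums were 157.6 to 244.0 CPM for endothelial, 358.3 to 663.2 CPM for adipocyte, 42.2 to 250.5 CPM for macrophage, 19.8 to 29.0 CPM for satellite cell and 465.0 to 632.4 CPM for slow fibre markers, each overlapping the vehicle trained range. The part of these lists in the differences of Tbc1d1 and Hk2 was not tested.

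The rest of the pathway was read from a list of 59 other genes of glucose transport, insulin signalling to the transporter, vesicle traffic, glucose phosphorylation and glycogen handling, of which 57 were in the table and 55 were tested. In sedentary muscle 2 of 55 passed, both lower in knockout, with Slc2a3 the one described here, and in trained muscle 1 passed, Slc2a3. No gene of the list passed with training in either genotype or in the interaction (edgeR), and DESeq2 and limma also passed 0. At an unadjusted p under 0.05 in edgeR there were 6, 3 and 0. The share of all genes at that level is not given here, so these 3 counts are not read as particular to the list. Without vehicle trained library 2, 6 of 55 passed in sedentary muscle, with 4 lower and 2 higher in knockout, and 6 in trained muscle, with 4 lower and 2 higher. Over all tested genes the shares that passed were 2.33% and 3.29% on all samples and 6.98% and 8.66% without that library, so the counts of the list are not read as particular to it. The median log2 change of the list was -0.07 in sedentary and -0.15 in trained muscle on all samples, beside 0.01 and -0.03 over all genes. By role, the calls without that library in sedentary muscle were 1 of 3 transporters, 1 of 8 insulin signalling genes, 1 of 12 vesicle genes, 1 of 5 genes of glycogen synthesis, 0 of 10 of its breakdown and 0 of 13 of the control of both. Tigar was among those outside these roles.

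Slc2a3 encodes GLUT3, a high-affinity glucose transporter best known from neurons. It was at 27.92, 19.22, 19.84, 18.19 and 19.55 CPM in vehicle and 2.056, 3.655, 3.523, 2.955 and 2.303 CPM in knockout libraries of the sedentary groups. Trained muscle had 16.25, 11.43, 20.24, 22.26 and 20.49 CPM in vehicle and 2.32, 2.905 and 1.195 CPM in knockout. No knockout value came near a vehicle value in either state. The log2 change was -2.92 (SE 0.234, edgeR adjusted p = 1.005e-06), or 7.56-fold lower, in sedentary muscle and -3.07 (SE 0.290, edgeR adjusted p = 8.22e-06), or 8.40-fold lower, in trained muscle, and both calls held in all 25 alternatives.

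Tigar, a fructose-2,6-bisphosphatase that counters the PFKFB kinases, was at 189.1 to 231.6 CPM in vehicle and 133.9 to 152.2 CPM in knockout muscle of the sedentary groups. Without library 2, Tigar had a log2 change of -0.59 (edgeR adjusted p = 0.0003584) there and -0.61 (edgeR adjusted p = 0.002346) in trained muscle. With it, the adjusted p was 0.0913 and 0.262.

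**Figure D5:**
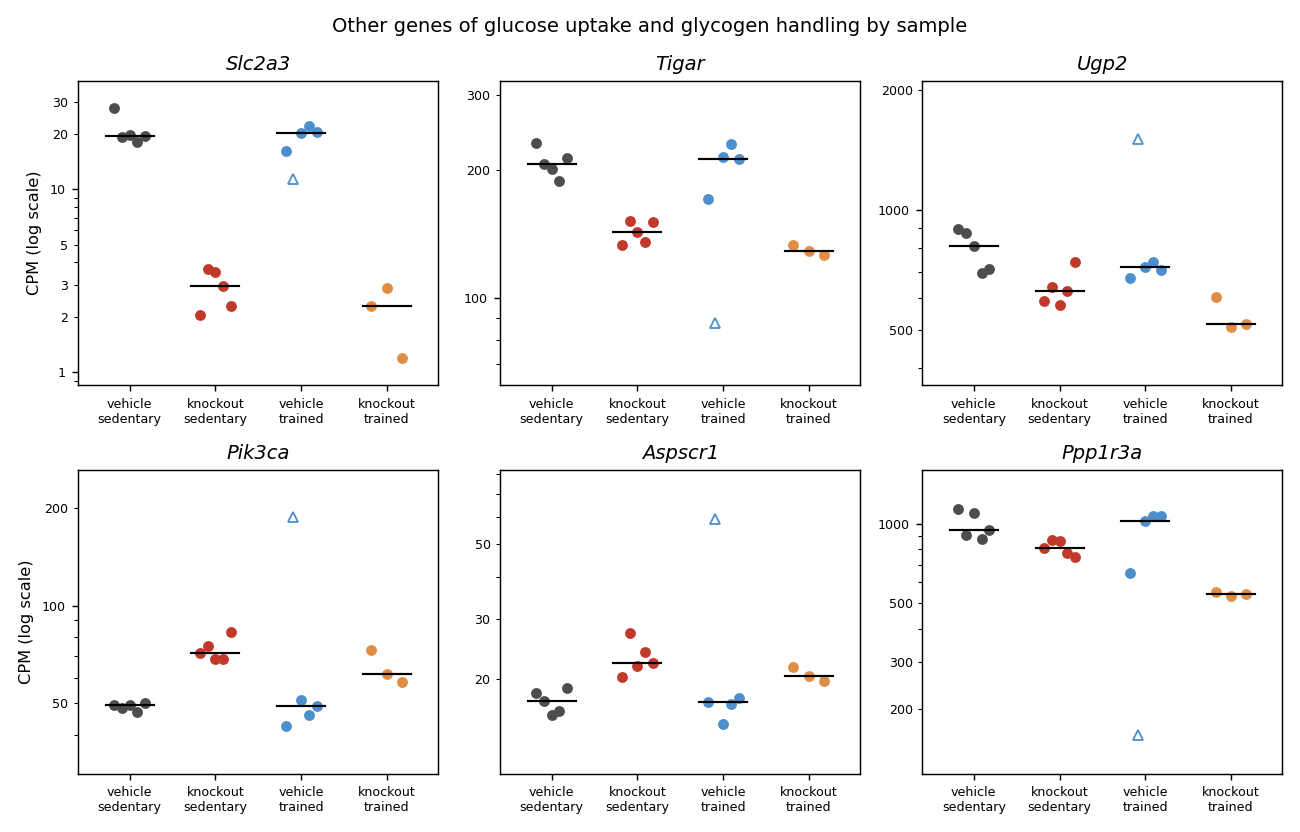
CPM of 6 other genes of glucose uptake and glycogen handling by sample on a log axis, drawn with group medians as bars and vehicle trained library 2 as an open triangle. Slc2a3, Tigar and Ppp1r3a are lower in every knockout sample than in every vehicle sample of the same state when the triangle is set aside. Pik3ca and Aspscr1 are higher in the same way. The 6 genes were drawn because they passed in these data without library 2, so their separation is not a test. Of all tested genes, 9.4% did not overlap in sedentary muscle, and 14.5% in trained muscle without library 2.

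The genes of the list that were higher in knockout without library 2 were Pik3ca and Aspscr1. Pik3ca, the catalytic subunit of phosphatidylinositol 3-kinase, was at 46.99 to 50.03 CPM in vehicle and 68.49 to 82.78 CPM in knockout libraries of the sedentary groups. Its log2 change was 0.53 in sedentary muscle (edgeR adjusted p = 0.742 with library 2, and 0.0004389 without) and 0.50 in trained muscle without library 2 (edgeR adjusted p = 0.004907), but -0.23 with it. Aspscr1, or TUG, which tethers GLUT4 vesicles inside the cell, was at 15.7 to 18.9 CPM in vehicle and 20.3 to 27.3 CPM in knockout muscle of the sedentary groups. Without library 2 its log2 change was 0.37 (edgeR adjusted p = 0.01717) in sedentary and 0.38 (edgeR adjusted p = 0.04061) in trained muscle, and with it the values were 0.37 (edgeR adjusted p = 0.895) and -0.27 (edgeR adjusted p = 0.745).

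On the glycogen side, Ugp2, which makes UDP-glucose, the substrate of glycogen synthase, had a log2 change of -0.38 in sedentary muscle (edgeR adjusted p = 0.606, and 0.0225 without library 2). Ppp1r3a, the muscle subunit that targets protein phosphatase 1 to glycogen, was at 649.3, 159.8, 1024, 1067 and 1069 CPM in vehicle trained libraries and 552.9, 531.2 and 541.5 CPM in knockout trained samples. Leaving out library 2, Ppp1r3a was lower in knockout trained muscle, with a log2 change of -0.75 (edgeR adjusted p = 0.0045), and with it the change was -0.49 (edgeR adjusted p = 0.507). In sedentary muscle Ppp1r3a was at 873.6 to 1139 CPM in vehicle and 745.6 to 869.9 CPM in knockout libraries. These values did not overlap, as in 9.4% of all tested genes. The log2 change of -0.35 did not pass on all samples (edgeR adjusted p = 0.910), nor did Ppp1r3a pass there without library 2. Irs2 and Akt1, of the insulin signal, had the largest changes of the list with training in vehicle muscle, at 1.96 and 0.92 on the log2 scale (edgeR adjusted p = 0.281 and 0.283). Both rest on library 2, where Irs2 was at 663.6 CPM against 25.1 to 35.0 CPM in the other 4 libraries and Akt1 at 230.0 CPM against 44.1 to 59.8 CPM.

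The genes most like a member across samples were sought over the 17 samples other than vehicle trained library 2, by Pearson r of log2(CPM + 1), as a description. Hk2 was closest to Pfkm (r = 0.985), the muscle phosphofructokinase, then Tigar (0.970) and Clip1 (0.970). Tbc1d1 was closest to Slc2a3 (r = 0.971), Nhs (0.967) and Wnk2 (0.965). Slc2a4 was closest to Zyg11b (r = 0.931), Tpp1 (0.924) and Saraf (0.921). Points within a genotype share that genotype, so the same r was taken on deviations from group means, which gave 0.937 for Hk2 and Pfkm, 0.819 for Hk2 and Tigar, 0.543 for Tbc1d1 and Slc2a3 and 0.928 for Slc2a4 and Zyg11b. Hk2 and Tbc1d1 had r = 0.941 with each other over the samples and 0.534 on deviations. With library 2 added, the r of Hk2 and Tbc1d1 was 0.558. The genes closest to Hk2 were then Cyp27a1 (r = 0.968), Slc11a2 and Klhl21, and neither Pfkm nor Tigar was among them. In library 2 Pfkm was at 561.8 CPM and Hk2 at 1729 CPM. Slc2a3 (r = 0.953) stayed among the 3 genes closest to Tbc1d1, behind Vps13a, and Tpp1 (0.924) was closest to Slc2a4.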

How the data were processed

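RNA was extracted with Trizol and a column kit, per the labels. The deposited table holds estimated counts per gene, although it is named for CPM: the columns sum to between 10610333 and 19153527 and 72.0% of values are whole numbers. The submitters' processing notes name Partek, STAR 2.7.8a and DESeq2, and the builds mm10 and GRCm39, with no role for either, so exon lengths (GENCODE M21) and promoters (RefSeq, GRCm38.p6) may be of another build than the counts. Estimated counts were rounded to whole numbers. Library pairs whose noise at high counts was under 1.5 times that at low counts, a limit set after the values were seen, were summed, which left 18 samples. Genes were tested with edgeR 4.0.16 (R 4.3.3; quasi-likelihood test, TMM scaling, 4 group means, two-sided), with Benjamini-Hochberg adjustment over 14359 genes and a threshold of 0.05, and the script was tested on simulated data. Alternatives were DESeq2 1.42.0 and its size factors, limma 3.58.1 on log2(CPM + 1), no filter, 20 separate libraries, a replicate block, only the groups compared, and leaving out each sample. Named genes were the 10 members, genes of the pathway list that passed with or without vehicle trained library 2 or had the 2 largest changes of a contrast, and the 3 genes most like Slc2a4, Hk2 and Tbc1d1. Of the pathway list, 1 gene that passed is not reported here by name. The members and lists were chosen with earlier results of these data known.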

Additional observations from a re-analysis of the deposited data

Results flagged for a closer look

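Within groups of 4 or 5 samples, 12 of 60 sets of values had 1 sample far from the rest by Dixon's test at the 95% level. Chance flags about 1 in 20 independent sets. The 4 flags among the 30 sets of the members all fall on vehicle trained library 2. That library lay outside the range of its group in 77.3% of all tested genes. These flags are thus not independent, and the chance rate is no yardstick for them. Nor does the rate apply to all 60, since several of the other genes were named through changes that rest on vehicle trained library 2. Of the 12, 10 were that library. It stood high among the members for Slc2a1 (74.45 CPM), Hk2 (1729 CPM) and Pfkfb3 (891.7 CPM) and low for Pfkfb1 (7.399 CPM). It was also high for Ugp2 (1502 CPM), Aspscr1 (58.86 CPM), Pik3ca (186.9 CPM), Irs2 (663.6 CPM), Akt1 (230.0 CPM) and the targeted gene Arntl (132.3 CPM). The remaining 2 were Arntl in knockout sedentary library 1 (18.87 CPM) and Slc2a3 in vehicle sedentary library 1 (27.92 CPM).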

How the results depend on the processing

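The number of members that passed in sedentary muscle was 3 in the fit on the sedentary groups alone, and 1 to 3 over the fits that leave out 1 sample each, with 3 only without vehicle trained library 2. In trained muscle it was 0 in the fit on the trained groups alone and 1 to 2 on leaving out 1 sample each. For the pathway list in sedentary muscle, limma passed 1 gene and the fit on the sedentary groups alone 10, with 1 to 6 on leaving out 1 sample. In trained muscle DESeq2 passed 3, the 20 separate libraries 6 and the replicate block 3, with 1 to 6 on leaving out 1 sample. The 6 in each state came without vehicle trained library 2. Leaving it out also raised the share of all tested genes that passed, from 2.33% to 6.98% in sedentary muscle. In trained muscle that share went from 3.29% to 8.66%. For the other settings it is not given here, so these counts are not read as particular to the members or the list.

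Directions turned only for changes that did not pass on all samples; the causes were not tested. With the replicate block, the change of Slc2a1 with training in knockout muscle was 0.032 and the interaction of Tbc1d1 0.016. With limma, the training changes in knockout muscle were -0.055 for Gys1 and -0.12 for Pygm, and the knockout change of Pik3ca in trained muscle was 0.038. The other turns came from leaving out 1 sample. For the knockout effect in sedentary muscle, log2 changes then ran from -0.0056 to 0.19 for Hk1 and from -0.063 to 0.10 for Tbc1d4. In trained muscle they ran from -0.11 to 0.10 for Hk1, from -0.087 to 0.13 for Pygm, from -0.21 to 0.21 for Pfkfb1, from -0.89 to 0.29 for Pfkfb3, from -0.39 to 0.38 for Aspscr1 and from -0.38 to 0.50 for Pik3ca. For training in vehicle muscle they ran from -0.21 to 1.23 for Slc2a1, from -0.15 to 0.76 for Hk2, from -0.43 to 0.73 for Pfkfb3 and from -0.51 to 2.23 for Irs2. For training in knockout muscle they ran from -0.15 to 0.0195 for Slc2a4, from -0.14 to 0.039 for Slc2a1, from -0.076 to 0.31 for Gys1 and from -0.0833 to 0.10 for Pygm. For the interaction they ran from -1.28 to 0.17 for Slc2a1, from -0.21 to 0.0097 for Hk1, from -0.85 to 0.065 for Hk2 and from -0.21 to 0.12 for Tbc1d1.

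The replicate numbers of the labels did not pair the libraries. Over 30 pairs of groups and numbers the correlation of deviations from group means ran from -0.39 to 0.35, with 11 over 0.1, and 4 of 20 libraries correlated best with their own number. The block, fitted on 20 separate libraries, left the members that passed at 1 in sedentary and 2 in trained muscle. Slc2a1 and Hk1 have the lowest CPM of the members in vehicle sedentary muscle, and the comparisons with knockout trained muscle rest on 3 samples there.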
